A study of Mus musculus with 12 samples.

Results

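NF-κB and C/EBP regulators are 10 genes whose proteins build, restrain or report 2 families of transcription factors that act in inflammation. The list was Bcl3, Nfkb1, Nfkb2, Nfkbia, Nfkbie, Relb, Tnfaip3, Icam1, Cebpb and Cebpd, and every probe set whose single gene symbol was one of these names was taken. A probe set is a group of short probes on the array that together report 1 transcript. This gave 18 of the 45037 probe sets tested, for 9 of the 10 genes. Nfkb1 had no probe set under this rule and was not analysed here.

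NF-κB dimers are built from Rel proteins such as RelB and from p50 and p52, which are cut from the products of Nfkb1 and Nfkb2. In resting cells, inhibitor proteins of the IκB family hold the dimers in the cytoplasm. Cytokine and Toll-like receptors activate a kinase that has the inhibitors degraded, after which the dimers enter the nucleus and switch on target genes that include their own inhibitors. C/EBPβ and C/EBPδ are leucine zipper factors of the acute phase response and often act on the same promoters as NF-κB. In the injured retina, both Müller glia, the radial glia of the tissue, and microglia, its resident macrophages, are known to use these pathways.

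Expression in the whole neural retina of male 10-week-old mice was read on 12 arrays of the type Affymetrix Mouse Genome 430 2.0, 2 for every one of 6 groups. The groups were retinal explants at 3DIV (3 days in vitro) with CHIR99021, an inhibitor of the kinase GSK3, explants at 3DIV with vehicle (DMSO), and normal retina, each from 129X1/SvJJmsSlc mice (129) and from C57BL/6NCrSlc mice (B6). The labels give 15 µM for CHIR99021. The study set these states against each other to look for genes that go with how readily Müller glia of the 2 strains divide after damage. Damage here is the preparation of the explant together with its culture, which cannot be told apart. The labels call the arrays biological replicates but do not say that they came from separate animals, so the p-values measure the spread between these arrays, which may be partly technical.

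Values are log2 intensities after RMA, which removes background, puts the arrays on the same distribution and summarizes the probes of a set. The level of a probe set can be compared between groups but not with that of another probe set. Differences come from a limma fit with 1 mean for each group over all 12 arrays, carry its standard error (SE), and were called at a Benjamini-Hochberg adjusted p under 0.05 over all probe sets. Where a gene had several probe sets, the brightest over all arrays is described first.

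Replicate arrays correlated closely, with a Pearson r between 0.9965 and 0.9978 across probe sets. Rod genes, which mark the most abundant retinal cell, had summed intensities of 46841 to 50898 in 129 explants with vehicle, against 108011 to 110248 in normal 129 retina, and of 53571 to 56056 in B6 explants with vehicle, against 108604 to 109582 in normal B6 retina. All 10 measured rod genes fell in both strains. In whole tissue, fewer cells of a type and less RNA per cell cannot be told apart. Of 21 measured microglia and macrophage genes, 17 rose after damage in 129 and 19 in B6, where 19.1% and 19.3% of all genes rose. Their summed intensity was 2589 to 2618 with CHIR99021, 4053 to 4221 with vehicle and 1655 to 1681 in normal retina of 129, and 4335 to 4587, 9243 to 9975 and 2375 to 2522 in the same states of B6. Neutrophil genes, 8 in number, summed to between 216 and 242 on every array. One array stood apart, since the 11 measured lens genes summed to 30918 on replicate 2 of normal 129 retina and to 1292 on replicate 1, against 374 to 882 on the arrays of the other groups. The counts of called regulators that rest on normal 129 retina are also given without replicate 2. So are the counts of pathway genes called higher after damage in 129. The fit without replicate 2 calls fewer of all probe sets as well, so these counts do not compare with the shares given for all arrays. Counts of marker genes are given with all arrays only. Genes of the pigmented epithelium, a layer next to the retina, summed to 604 to 941 in explants and to 5267 to 12537 in normal retina. Müller glia genes, 12 in number, summed to 25890 to 33692 over all arrays, and were lowest in 129 explants with CHIR99021 (25890 to 28371). After damage in 129, 4 of the 12 rose and 5 fell.

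The promoters of several of these genes hold the DNA element that NF-κB itself binds, and those sequences are shown because NF-κB is known to switch on its own inhibitors through such elements. RefSeq windows of 300 bases, from 250 before the start site to 50 after it, were found in build GRCm38.p6 for 7 of the 10 genes, which gave 10 windows. Relb, Cebpd and Nfkb1 had no entry. A match to the κB consensus on either strand lay in 7 of the 10 windows, from 5 genes, whereas 4.51% of 32851 RefSeq promoter windows held 1. The 7 include all 3 windows of Nfkb2. The genes were listed as regulators of this pathway, so the 2 shares are a description and not a test. The windows of Bcl3 (chr7:19822706-19823005, minus strand), Nfkbia (chr12:55492598-55492897, minus strand), Nfkbie (chr17:45555450-45555749, plus strand), Nfkb2 (the first of 3, chr19:46304487-46304786, plus strand) and Tnfaip3 (the first of 2, chr10:19015361-19015660, minus strand) follow, 5′ to 3′, with κB matches in capitals.
Bcl3: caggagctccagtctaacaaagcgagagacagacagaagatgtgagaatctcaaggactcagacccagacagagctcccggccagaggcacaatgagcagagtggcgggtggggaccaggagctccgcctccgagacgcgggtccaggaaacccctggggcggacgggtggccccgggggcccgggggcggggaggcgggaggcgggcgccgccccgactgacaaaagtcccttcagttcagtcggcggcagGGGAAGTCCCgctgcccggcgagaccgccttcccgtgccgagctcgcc
Nfkbia: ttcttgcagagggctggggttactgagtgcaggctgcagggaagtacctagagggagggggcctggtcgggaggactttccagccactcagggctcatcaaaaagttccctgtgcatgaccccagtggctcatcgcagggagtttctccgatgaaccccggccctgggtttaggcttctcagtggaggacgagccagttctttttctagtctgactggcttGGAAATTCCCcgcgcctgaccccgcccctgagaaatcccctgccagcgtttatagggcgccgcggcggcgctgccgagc
Nfkbie: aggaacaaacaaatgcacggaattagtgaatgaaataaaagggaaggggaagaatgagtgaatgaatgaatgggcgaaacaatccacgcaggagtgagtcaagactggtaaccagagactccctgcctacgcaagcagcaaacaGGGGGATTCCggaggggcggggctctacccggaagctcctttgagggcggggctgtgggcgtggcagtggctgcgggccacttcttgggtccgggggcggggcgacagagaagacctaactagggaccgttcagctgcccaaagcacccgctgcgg
Nfkb2: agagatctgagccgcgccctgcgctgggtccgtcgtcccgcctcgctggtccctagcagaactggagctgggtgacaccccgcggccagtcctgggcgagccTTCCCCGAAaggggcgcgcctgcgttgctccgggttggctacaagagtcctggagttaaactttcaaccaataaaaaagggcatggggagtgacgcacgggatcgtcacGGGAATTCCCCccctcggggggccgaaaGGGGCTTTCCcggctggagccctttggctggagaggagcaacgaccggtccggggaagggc
Tnfaip3: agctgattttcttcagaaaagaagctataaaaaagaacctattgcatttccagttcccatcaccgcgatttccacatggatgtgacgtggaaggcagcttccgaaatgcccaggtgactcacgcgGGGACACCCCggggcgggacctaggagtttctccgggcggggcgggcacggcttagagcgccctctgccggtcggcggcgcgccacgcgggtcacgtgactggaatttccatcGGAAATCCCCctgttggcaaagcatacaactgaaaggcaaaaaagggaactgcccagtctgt
The first capitals in the Nfkb2 window, TTCCCCGAA, are instead a match to the STAT core TTCNNNGAA, which 8.3% of all windows held.

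Counted from the start site, the match lay at -29 to -20 in Nfkbia, at -106 to -97 in Nfkbie and at 3 to 12 in Bcl3. Nfkb2 had 2 overlapping matches at -39 to -30 and -38 to -29 and a further match at -11 to -2, and Tnfaip3 had matches at -125 to -116 and at -12 to -3. The other 2 Nfkb2 windows overlap each other and share the match GGGACTTTCC. No κB match was found in the windows of Cebpb, of Icam1 or in the second of Tnfaip3. The consensus GGGRNWYYCC is strict, and the Icam1 window does hold TGGAAATTCC, which departs from it only in its first letter. The Icam1 window held TTCCCGGAA, a match to the STAT core, at -42 to -34. The C/EBP core TTGCNNAA was in none of the 10 windows and in 10.8% of all. A match describes the letters only, and binding was not measured.

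**Figure D1:**
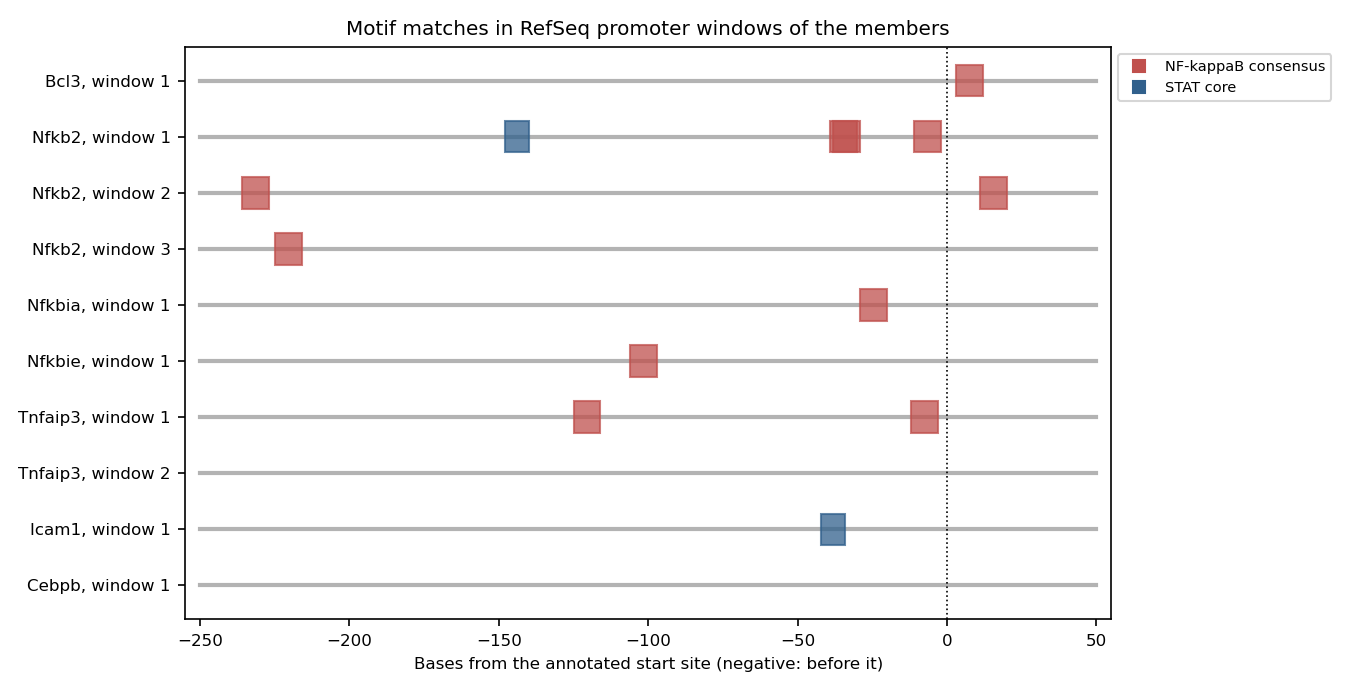
Positions of motif matches in the 10 RefSeq promoter windows of 7 genes, with bases from the annotated start site on the horizontal axis and 1 line for each window. Red blocks are matches to the κB consensus, in 7 windows, and blue blocks are matches to the STAT core, in the first Nfkb2 window and in Icam1.

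After damage, most of the regulators rose in both strains, led by the C/EBP factors and by Bcl3, while the ubiquitin-editing inhibitor Tnfaip3 fell. Of the 18 probe sets, 14 were called higher and 2 lower in 129, where 14.7% of all probe sets were higher and 15.9% lower. In B6, 13 were called higher and 2 lower, where 14.9% of all were higher and 16.6% lower. The median difference over the 18 was 0.70 in 129 and 0.43 in B6, against medians of -0.03 and -0.02 over all probe sets. Without replicate 2 of normal 129 retina, 15 of the 18 were called in 129, and the call lost was that of Nfkb2 1429128_x_at. The other 15 calls in 129, those of Bcl3, Relb, Nfkbia, Nfkbie, Tnfaip3, Icam1, Cebpb, Cebpd and the second Nfkb2 probe set, had the same direction and an adjusted p of 0.0222 or less without it. Centring on housekeeping genes left 15 of the 18 called in 129 and 13 in B6, but it changed the split of all calls to 4242 higher and 16530 lower in 129 (6640 and 7144 with RMA alone) and to 5071 higher and 10269 lower in B6 (6714 and 7474). The housekeeping genes themselves summed to 25317 to 26414 in normal 129 retina, against 28094 to 28680 in 129 vehicle explants and 29143 to 29379 in normal B6 retina. After damage in 129, 2 of the 7 were called higher and 1 lower. This scaling therefore rests on genes that differ between the groups. Marker genes of several cell types also moved after damage. Besides the rod and microglia sums above, the 7 astrocyte and reactive glia genes summed to 8611 to 9774 in 129 vehicle explants, against 846 to 984 in normal 129 retina, and to 18777 to 21580 in B6 vehicle explants, against 1049 to 1160 in normal B6 retina, where 5 rose and 1 fell in each strain. The 12 vessel genes summed to 5244 to 5427 in 129 vehicle explants, against 3418 to 3503 in normal 129 retina, and to 5470 to 5699 in B6 vehicle explants, against 3784 to 3912 in normal B6 retina. Among the reactive glia genes, Lcn2 and Serpina3n also belong to the acute phase and C/EBP targets described below, so that sum is not separate from the pathway. The part of these cells in the changes of the regulators was not tested.

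**Figure D2:**
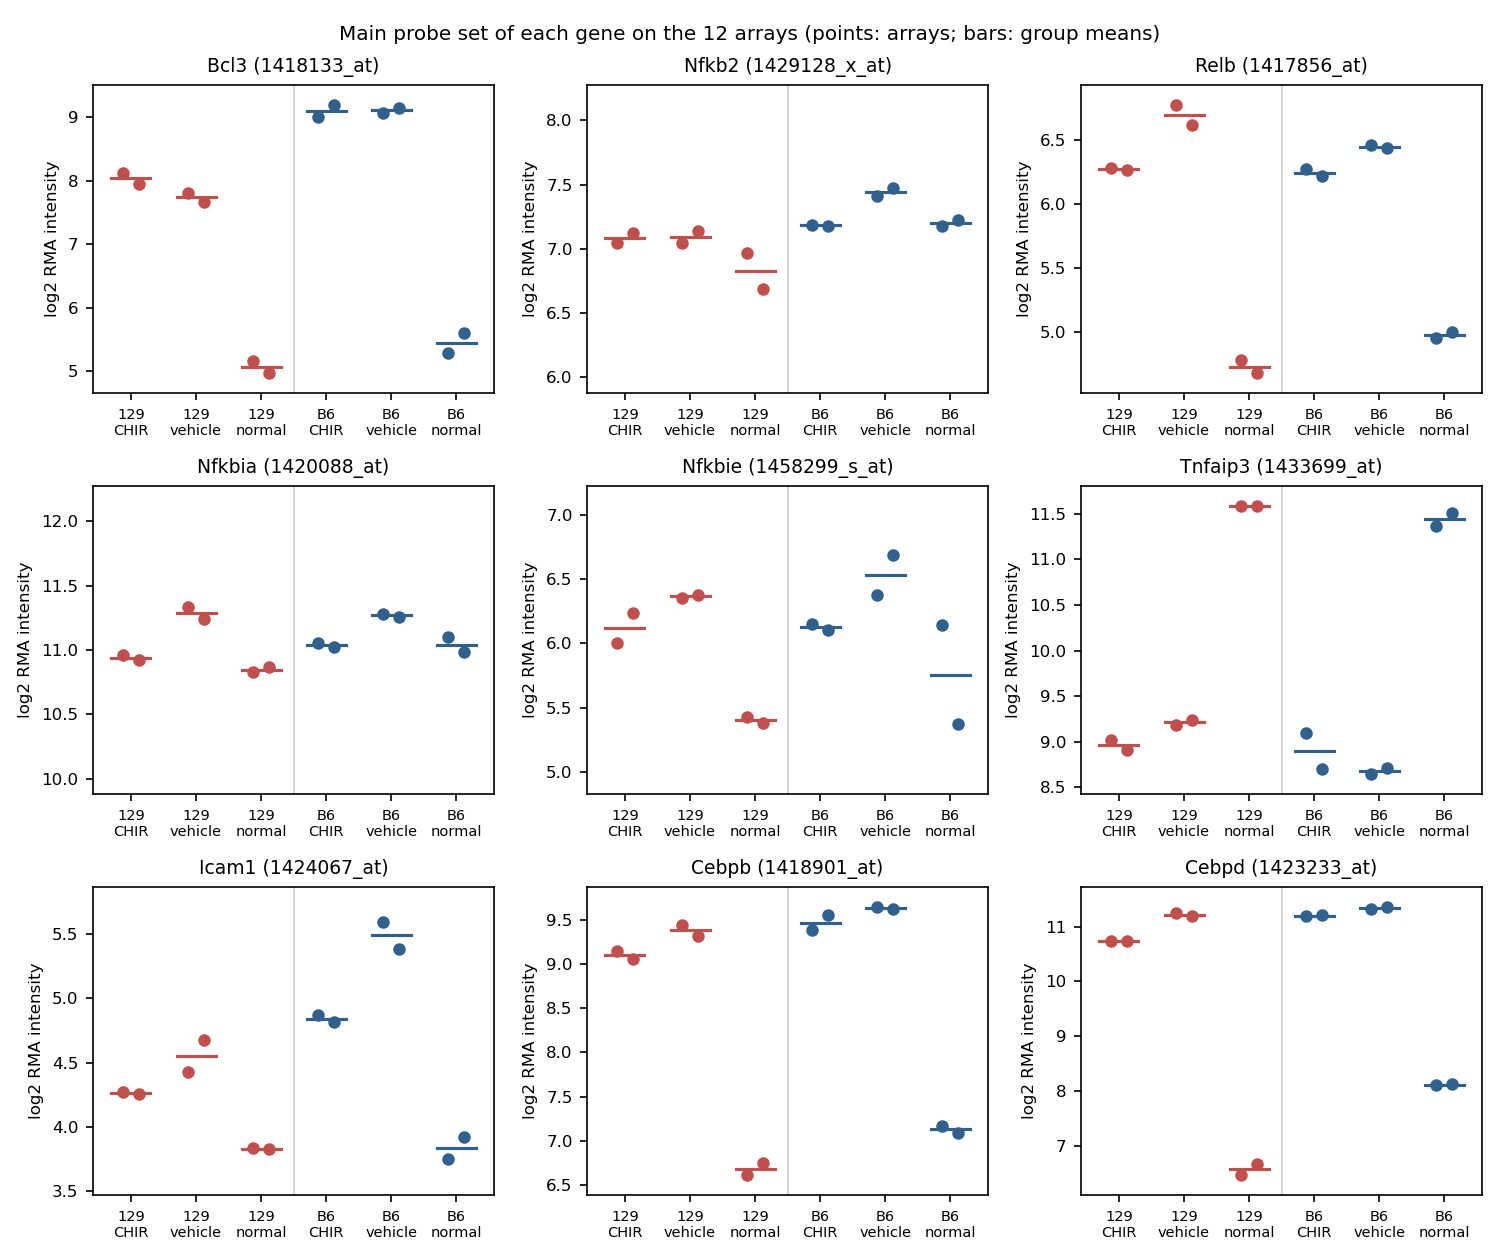
The main probe set of each of the 9 measured genes on all 12 arrays, with log2 RMA intensity on the vertical axes and the 6 groups on the horizontal axes. Points are arrays and bars are group means of 2 arrays. Tnfaip3 is the only gene whose normal arrays lie above its explant arrays in both strains.

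Cebpd, the C/EBP family member induced most sharply in acute inflammation, changed most of the 9 genes in 129 and second to Bcl3 in B6. In 129 it stood at 10.74 and 10.75 with CHIR99021, at 11.25 and 11.19 with vehicle, and at 6.46 and 6.66 in normal retina. In B6 it stood at 11.19 and 11.21 with CHIR99021, at 11.32 and 11.36 with vehicle, and at 8.10 and 8.12 in normal retina. All explants were thus above all normal retinas, and the 2 strains lay apart mainly in the normal retina. The rise was 4.65 in 129 (SE 0.08, 25.2-fold, adjusted p = 7.51e-11) and 3.23 in B6 (SE 0.08, 9.40-fold, adjusted p = 1.32e-09). The rise was larger in 129 by 1.42 (SE 0.11, adjusted p = 1.52e-04 for the interaction). In normal retina Cebpd was lower in 129 by a log2 difference of -1.55 (SE 0.08, 2.92-fold, adjusted p = 4.95e-07), whereas in vehicle explants the difference of -0.12 (SE 0.08, adjusted p = 0.308) did not pass. The calls of 1423233_at named here were kept in all 18 alternatives, among them the fit without replicate 2 of normal 129 retina. The second Cebpd probe set, 1456605_at, rose less, by 0.71 in 129 (SE 0.11, adjusted p = 4.14e-04) and by 0.54 in B6 (SE 0.11, adjusted p = 0.00263). Neither its interaction of 0.17 (SE 0.15, adjusted p = 0.622) nor its strain difference of -0.21 in normal retina (SE 0.11, adjusted p = 0.257) passed, so the difference between the strains rests on 1423233_at.

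Cebpb, the partner of Cebpd in the acute phase response, rose in both strains. In 129 it stood at 9.14 and 9.06 with CHIR99021, at 9.44 and 9.31 with vehicle, and at 6.61 and 6.75 in normal retina. B6 arrays were at 9.38 and 9.55 with CHIR99021, at 9.65 and 9.62 with vehicle, and at 7.17 and 7.09 in normal retina. No explant array overlapped with a normal one. The rise was 2.70 in 129 (SE 0.09, adjusted p = 4.58e-09) and 2.504 in B6 (SE 0.09, adjusted p = 1.13e-08), and the interaction of 0.19 (SE 0.12, adjusted p = 0.466) did not pass. In normal retina Cebpb was lower in 129 by a difference of -0.45 (SE 0.09, adjusted p = 0.00705), a call lost without replicate 1 of normal 129 retina (adjusted p = 0.0672). The second probe set, 1427844_a_at, rose by 2.05 in 129 and 1.70 in B6.

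Bcl3, an unusual IκB protein that works in the nucleus on p50 and p52 dimers, rose most among the NF-κB genes, and more so in B6. In 129 it stood at 8.12 and 7.95 with CHIR99021, at 7.81 and 7.67 with vehicle, and at 5.16 and 4.97 in normal retina. Its B6 values were at 9.01 and 9.20 with CHIR99021, at 9.07 and 9.15 with vehicle, and at 5.29 and 5.61 in normal retina. Every B6 explant lay above every 129 explant. The rise was 2.67 in 129 (SE 0.12, 6.37-fold, adjusted p = 4.99e-08) and 3.66 in B6 (SE 0.12, 12.6-fold, adjusted p = 7.48e-09). The rise was smaller in 129 by 0.99, an interaction of -0.99 (SE 0.17, adjusted p = 0.0154). This call was lost without replicate 2 of the B6 vehicle explants (adjusted p = 0.0624), replicate 1 of normal 129 retina (adjusted p = 0.0527) or replicate 2 of the 129 vehicle explants (adjusted p = 0.0708). Between the vehicle explants, Bcl3 was lower in 129 by a difference of -1.37 (SE 0.12, 2.59-fold, adjusted p = 2.88e-05), and between the CHIR99021 explants by -1.07 (SE 0.12, adjusted p = 1.95e-04). Ordered by mean level, B6 vehicle and B6 CHIR99021 explants did not differ by the test (adjusted p = 0.984), nor did the 2 kinds of 129 explant (adjusted p = 0.141) or the 2 normal retinas (adjusted p = 0.0673). The microglia sums were higher in B6 in each state as well, and their part in this difference was not tested.

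Relb, the Rel protein that pairs with p52, was the subunit that rose most. In 129 it stood at 6.28 and 6.27 with CHIR99021, at 6.78 and 6.62 with vehicle, and at 4.78 and 4.68 in normal retina. Levels in B6 were at 6.27 and 6.22 with CHIR99021, at 6.46 and 6.44 with vehicle, and at 4.960 and 5.001 in normal retina. In each strain the vehicle explants were highest and the normal retinas lowest, with no overlap between states. The rise was 1.97 in 129 (SE 0.08, 3.91-fold, adjusted p = 1.74e-08) and 1.47 in B6 (SE 0.08, 2.77-fold, adjusted p = 1.75e-07). The interaction of 0.50 (SE 0.11, adjusted p = 0.0393) passed but was kept in only 2 of 17 alternatives, with an adjusted p of up to 0.123.

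Nfkb2, the precursor of p52, changed little at its main probe set and rose more at the other. Its main probe set, 1429128_x_at, stood at 7.05 and 7.13 with CHIR99021, at 7.04 and 7.14 with vehicle and at 6.96 and 6.69 in normal retina of 129. In B6 it stood at 7.19 and 7.18 with CHIR99021, at 7.41 and 7.47 with vehicle, and at 7.17 and 7.22 in normal retina. The difference of 0.27 in 129 (SE 0.09, adjusted p = 0.0499) was at the limit and was kept in 4 of 18 alternatives. Without replicate 2 of normal 129 retina it was 0.13 (adjusted p = 0.379). The difference of 0.24 in B6 (SE 0.09, adjusted p = 0.0694) did not pass. The other probe set, 1425902_a_at, rose by 0.70 in 129 (SE 0.10, adjusted p = 3.73e-04) and 0.40 in B6 (SE 0.10, adjusted p = 0.0122), the second of which was lost without replicate 1 of normal B6 retina (0.23, adjusted p = 0.0881) or replicate 1 of the B6 vehicle explants (adjusted p = 0.0623).

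Nfkbia, which encodes IκBα, the inhibitor that NF-κB itself induces first, rose in both strains. Its main probe set, 1420088_at, stood at 10.96 and 10.92 with CHIR99021, at 11.33 and 11.24 with vehicle and at 10.82 and 10.87 in normal retina of 129. B6 arrays were at 11.06 and 11.03 with CHIR99021, at 11.28 and 11.26 with vehicle, and at 11.10 and 10.98 in normal retina. The vehicle explants were above both other states in each strain. The rise was 0.44 in 129 (SE 0.07, adjusted p = 7.91e-04) and 0.23 in B6 (SE 0.07, adjusted p = 0.0335), and 3 more probe sets rose by 0.66 to 0.78 in 129 and by 0.32 to 0.46 in B6. In B6 the call of 1420088_at was lost without replicate 2 of normal B6 retina (adjusted p = 0.181) or either B6 vehicle explant (adjusted p = 0.125 and 0.0899), that of 1438157_s_at without replicate 2 of normal B6 retina (adjusted p = 0.0553) or of the B6 vehicle explants (adjusted p = 0.0586), and that of 1449731_s_at without replicate 1 of the B6 vehicle explants (adjusted p = 0.0606). The last probe set, 1420089_at, stood at 0.23 in 129 (adjusted p = 0.264) and 0.20 in B6 (adjusted p = 0.325).

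Nfkbie, which encodes the related inhibitor IκBε, rose at 1458299_s_at. In 129 it stood at 6.00 and 6.24 with CHIR99021, at 6.35 and 6.38 with vehicle, and at 5.43 and 5.38 in normal retina. Its B6 values were at 6.15 and 6.10 with CHIR99021, at 6.38 and 6.69 with vehicle, and at 6.14 and 5.37 in normal retina. The 2 normal B6 arrays were far apart. The rise was 0.96 in 129 (SE 0.20, adjusted p = 0.00333) and 0.78 in B6 (SE 0.20, adjusted p = 0.0115), the second of which was lost without replicate 2 of normal B6 retina (0.39, adjusted p = 0.0608) or of the B6 vehicle explants (adjusted p = 0.0935). The second probe set, 1431843_a_at, did not pass, with 0.20 in 129 (adjusted p = 0.484) and 0.29 in B6 (adjusted p = 0.280).

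Tnfaip3 encodes A20, which removes ubiquitin chains from signalling proteins of the pathway and so limits it. Its probe set 1433699_at stood at 9.02 and 8.91 with CHIR99021, at 9.19 and 9.24 with vehicle and at 11.59 and 11.59 in normal retina of 129. Levels in B6 were at 9.10 and 8.71 with CHIR99021, at 8.65 and 8.72 with vehicle, and at 11.37 and 11.51 in normal retina. All normal retinas were above all explants. Tnfaip3 fell by 2.37 in 129 (SE 0.11, 5.18-fold, adjusted p = 7.92e-08) and by 2.76 in B6 (SE 0.11, 6.77-fold, adjusted p = 3.22e-08). Its second probe set, 1450829_at, fell by 1.45 in 129 (SE 0.16, adjusted p = 4.25e-05) and by 1.88 in B6 (SE 0.16, adjusted p = 6.27e-06). The sums of the rod genes and of the pigmented epithelium genes given above also fell in both strains, and the part of these cells was not tested. The rod sum in vehicle explants was 46841 to 50898 in 129 and 53571 to 56056 in B6. Between vehicle explants Tnfaip3 was higher in 129 by 0.53 (SE 0.11, adjusted p = 0.00747), a call lost without replicate 1 of the B6 vehicle explants (adjusted p = 0.0508) or replicate 2 of the 129 vehicle explants (adjusted p = 0.0562).

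Icam1 encodes an adhesion molecule of vessels and glia that binds leukocytes and is a classical NF-κB target. Its single probe set, 1424067_at, stood at 4.27 and 4.26 with CHIR99021, at 4.43 and 4.68 with vehicle and at 3.83 and 3.83 in normal retina of 129. In B6 it stood at 4.87 and 4.81 with CHIR99021, at 5.59 and 5.39 with vehicle, and at 3.75 and 3.92 in normal retina. Every B6 explant was above every 129 explant, and every explant above every normal retina. The rise was 0.72 in 129 (SE 0.10, 1.65-fold, adjusted p = 2.81e-04) and 1.66 in B6 (SE 0.10, 3.15-fold, adjusted p = 5.72e-07). It was smaller in 129, with an interaction of -0.93 (SE 0.14, adjusted p = 0.00954) that was kept in all 17 alternatives. The level in normal retina was low on this array, at percentile 14.1 of all probe sets in 129 and 14.0 in B6, and whether it lay above background was not tested. If it did not, the folds are lower bounds and the interaction rests on baselines that were not measured. The strain difference there was -0.0032 (SE 0.10, adjusted p = 0.990), which at this level does not show equal expression. In vehicle explants, at percentiles 25.1 in 129 and 40.1 in B6, Icam1 was lower in 129 by a difference of -0.94 (SE 0.10, adjusted p = 1.28e-04). In the same comparison 18 of the 21 microglia genes were lower in 129, where 10.2% of all genes were lower. Their part in the Icam1 difference was not tested.

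**Figure D3:**
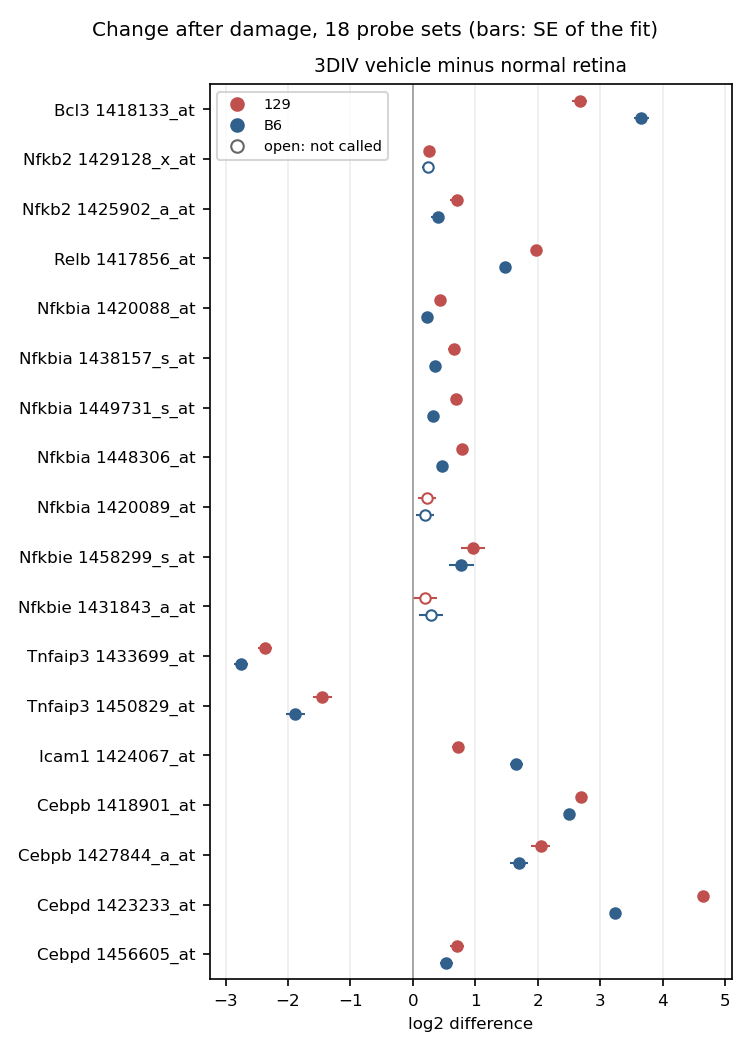
Change after damage for the 18 probe sets, with the log2 difference of 3DIV vehicle explants minus normal retina on the horizontal axis, 129 in red above B6 in blue, and the SE of the fit as bars. Filled points were called, 14 higher and 2 lower in 129 and 13 higher and 2 lower in B6, and Tnfaip3 is the only gene on the left.

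The change after damage itself differed between the strains for 4 probe sets, each the main one of its gene. It was higher in 129 for Relb and Cebpd, where 1.55% of all probe sets were called higher, and lower in 129 for Bcl3 and Icam1, where 1.03% were called lower. Without replicate 2 of normal 129 retina, 3 of the 18 were called, and without replicate 2 of the B6 vehicle explants, replicate 1 of normal 129 retina or replicate 2 of the 129 vehicle explants, 2 were. Centring on housekeeping genes also left 3, without Relb, and changed the split of all calls to 409 higher and 798 lower (696 and 465 with RMA alone).

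With CHIR99021 the regulators that were called with all arrays fell relative to vehicle, Icam1 in B6 the most at -0.65. In 129, 6 of the 18 probe sets were called lower and 0 higher, where 6.38% of all probe sets were lower and 5.87% higher. In B6, 4 were lower and 0 higher, where 9.18% were lower and 9.42% higher. Centring on housekeeping genes left these counts at 6 and 4 but changed the split of all calls to 4132 higher and 1972 lower in 129 (2644 and 2873 with RMA alone) and to 6724 higher and 2516 lower in B6 (4243 and 4136). At an unadjusted p under 0.05, limma gave 10 of the 18 in 129, where 26.3% of all probe sets passed, and 7 in B6, where 31.0% did, of either direction. Without replicate 2 of the B6 CHIR99021 explants, Tnfaip3 1433699_at was called higher in B6, by 0.41 (adjusted p = 0.0252), against 0.22 with all arrays. Nfkbia supplied 4 of the 6 in 129 and 3 of the 4 in B6. Its probe set 1448306_at stood at 9.04 and 8.88 with CHIR99021 and at 9.52 and 9.46 with vehicle in 129, a difference of -0.53 (SE 0.08, adjusted p = 0.00192). B6 arrays were at 9.19 and 9.22 with CHIR99021 and at 9.64 and 9.65 with vehicle, a difference of -0.44 (SE 0.08, adjusted p = 0.00353).

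The other calls were split between the strains. In 129, Cebpd was lower with CHIR99021 by a difference of -0.48 (SE 0.08, adjusted p = 0.00309), where B6 had -0.14 (adjusted p = 0.250). Relb was lower in 129 by -0.42 (SE 0.08, adjusted p = 0.00545), where B6 had -0.20 (adjusted p = 0.0926). In B6, Icam1 was lower by -0.65 (SE 0.10, adjusted p = 0.00173), where 129 had -0.29 (adjusted p = 0.0950). None of the 18 passed the test in limma for a difference between the strains in the effect of CHIR99021, where 1.35% of all probe sets were called in either direction and 3 of the 18 had an unadjusted p under 0.05, as had 14.7% of all. A difference between the strains in these effects is therefore not shown. Without replicate 1 of the 129 vehicle explants, 3 of the 18 were called in 129, and neither Relb (adjusted p = 0.0535) nor Nfkbia 1420088_at (adjusted p = 0.0860) and 1438157_s_at (adjusted p = 0.0808) was among them. Without replicate 1 of the B6 vehicle or CHIR99021 explants, 2 were called in B6, namely Icam1 and Nfkbia 1448306_at, and without replicate 2 of the B6 CHIR99021 explants 1 of the 18 passed the interaction test, Tnfaip3 1433699_at at -0.66 (adjusted p = 0.0469). Of the 21 microglia genes, 12 were lower and 1 higher with CHIR99021 in 129 and 17 were lower in B6. Of all genes, 7.9% were lower and 7.3% higher in 129, and 12.5% were lower and 8.6% higher in B6. Sums of other marker genes were lower with CHIR99021 too. Rod genes summed to 35240 to 38586 with CHIR99021 against 46841 to 50898 with vehicle in 129, and to 36823 to 37501 against 53571 to 56056 in B6. Astrocyte and reactive glia genes summed to 6461 to 6634 with CHIR99021 against 8611 to 9774 with vehicle in 129, and to 9396 to 10371 against 18777 to 21580 in B6, although 2 of the 7 were called higher and 2 lower in each strain. Vessel genes summed to 3781 to 4006 with CHIR99021 against 5244 to 5427 with vehicle in 129, and to 4383 to 4430 against 5470 to 5699 in B6, with 5 of the 12 lower in each strain. Müller glia genes summed to 25890 to 28371 with CHIR99021 against 30054 to 30572 with vehicle in 129. In B6 their sums overlapped, at 31130 to 31884 and 31676 to 33139. The reactive glia sum again holds Lcn2 and Serpina3n, which are also listed as acute phase and C/EBP targets. The part of these cells in the effect on the regulators was not tested.

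Between the normal retinas, 6 of the 18 probe sets were lower in 129 and 0 higher, where 5.45% of all were lower and 6.07% higher. Besides Cebpd and Cebpb these were 3 probe sets of Nfkbia, at -0.34 to -0.48, and the main one of Nfkb2 at -0.37 (SE 0.09, adjusted p = 0.0252). Without replicate 1 of normal 129 retina 3 were called, and without replicate 2 of it 4. The call of Nfkb2 was lost without replicate 2 of normal 129 retina (-0.23, adjusted p = 0.182) or either normal B6 retina (adjusted p = 0.0715 and 0.106), and that of Nfkbia 1438157_s_at without any of the 4 normal retinas (adjusted p = 0.0653 to 0.181), and that of 1449731_s_at without replicate 1 of normal 129 retina (adjusted p = 0.0725). Centring on housekeeping genes left 4 of the 6 and changed the split of all calls to 6220 higher and 1612 lower in 129 (2735 and 2453 with RMA alone). Of the microglia genes, 11 of 21 were lower in 129 here, where 5.8% of all genes were lower, and their part was not tested. Between vehicle explants, 3 were lower in 129, where 8.57% of all were lower, namely Bcl3, Icam1 and Nfkb2, and 2 were higher, where 11.4% were higher, namely Tnfaip3 and Relb. The difference of Relb, 0.25 (SE 0.08, adjusted p = 0.0416), was kept in 6 of 17 alternatives. The 5 calls numbered 2 without replicate 1 of the B6 vehicle explants and 3 without either 129 vehicle explant, and that of Nfkb2 was lost without any of the 4 vehicle explants (adjusted p = 0.0592 to 0.131). Between CHIR99021 explants, 4 were lower in 129 and 0 higher, where 4.88% of all were lower and 6.01% higher. They were Bcl3, Icam1 at -0.58 (SE 0.10, adjusted p = 0.00395), Cebpd at -0.46 (SE 0.08, adjusted p = 0.00315) and Cebpb at -0.36 (SE 0.09, adjusted p = 0.0214). That of Cebpb was lost without either 129 CHIR99021 explant or replicate 2 of the B6 ones (adjusted p = 0.0652 to 0.155).

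**Figure D4:**
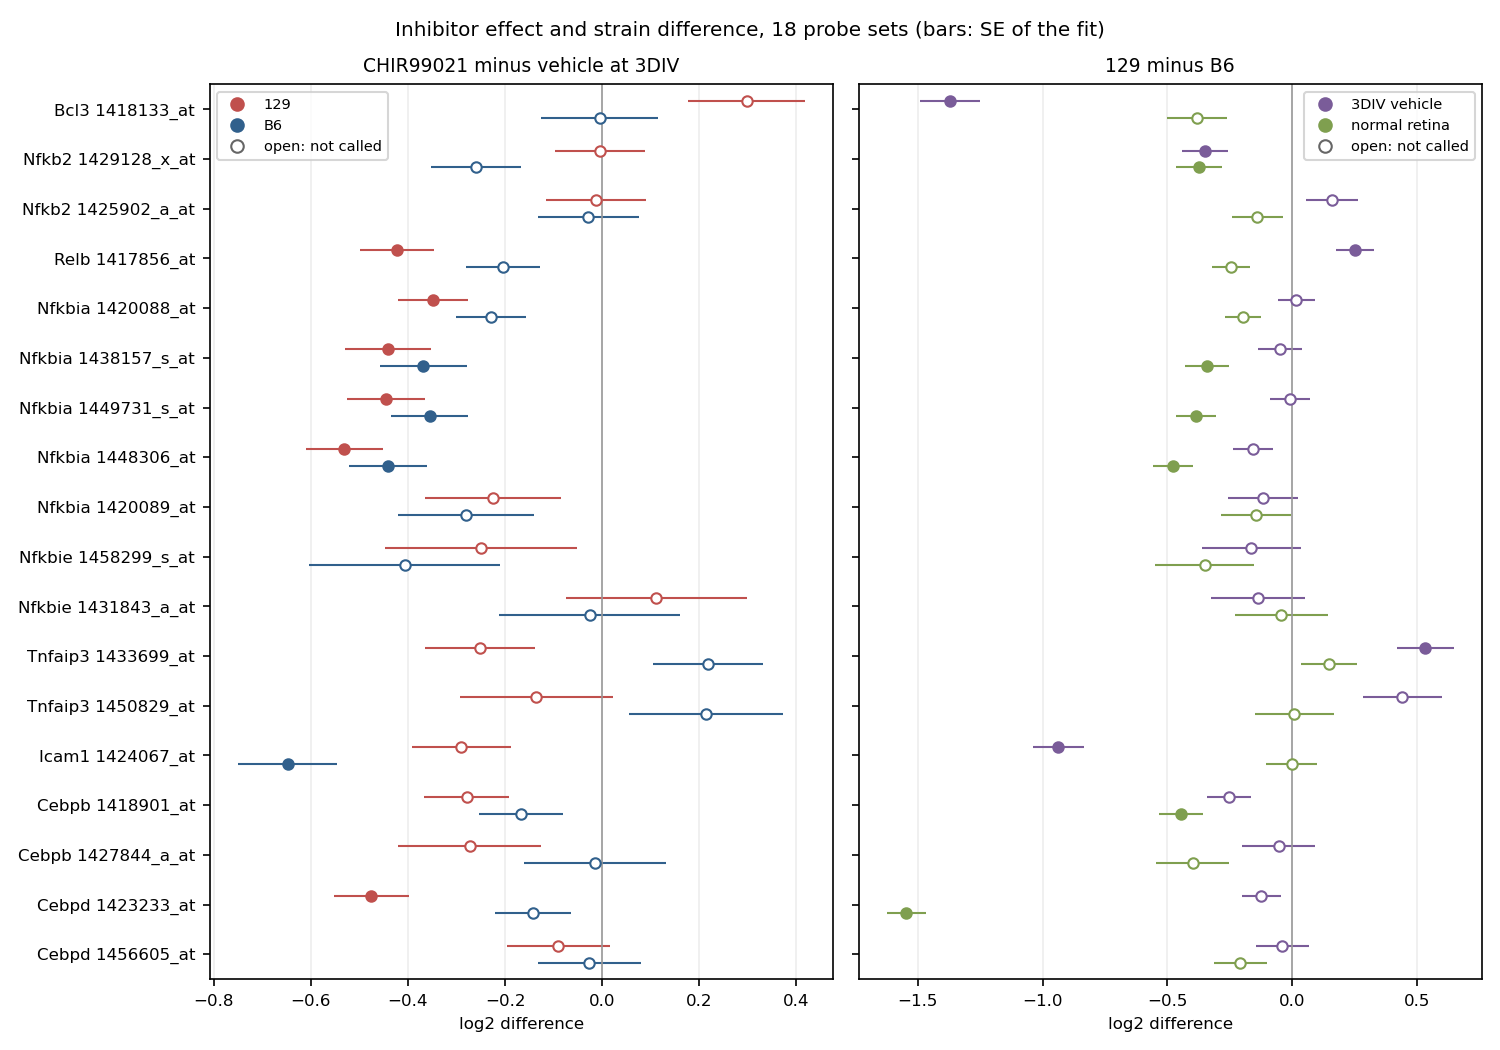
Log2 differences of the 18 probe sets with the SE of the fit as bars. The left panel plots CHIR99021 minus vehicle at 3DIV, 129 in red above B6 in blue, and the right panel 129 minus B6, vehicle explants in purple above normal retina in green. Filled points were called. All filled points on the left lie below 0, and Cebpd at -1.55 in normal retina and Bcl3 at -1.37 in vehicle explants lie farthest from 0 on the right.

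The other genes of the pathway are described from lists by their main probe sets, where 19.1% of all 18193 genes rose after damage in 129, and 19.3% rose and 16.9% fell in B6. Of 6 other NF-κB and IκB genes, 3 rose in 129 and 4 in B6 and 0 fell. Nfkbiz, a nuclear IκB protein like Bcl3, rose by 1.77 in 129 (SE 0.09, adjusted p = 1.36e-07) and by 1.77 in B6 (SE 0.09, adjusted p = 1.64e-07), and Rela, the main activating subunit, by 0.65 and 0.58. The 4 in B6 numbered 2 to 4 without any single array. Of 22 upstream receptors and ligands, 10 rose and 1 fell in 129, and 13 rose and 0 fell in B6. Tnfrsf12a, the receptor of the cytokine TWEAK, rose by 2.90 in 129 and 2.43 in B6, and Tlr3, the receptor of double-stranded RNA, by 2.49 and 1.74. Cd14, a co-receptor of bacterial lipopolysaccharide, rose by 2.45 in 129 and 1.62 in B6, and Tnfrsf1a, the main TNF receptor, by 1.9998 and 1.72.

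Of 23 adaptors and kinases, 9 rose and 2 fell in 129, and 11 rose and 2 fell in B6, the 11 numbering 7 to 11 without any single array. Map3k8, a kinase downstream of the pathway, rose by 1.75 in 129 and 1.35 in B6, and Myd88, the adaptor of Toll-like and interleukin-1 receptors, by 1.60 and 1.32. Of 15 genes listed as feedback inhibitors other than the regulators, 6 rose and 1 fell in 129 and 5 rose and 1 fell in B6. Centred on housekeeping genes, 3 rose and 4 fell in 129 and 4 rose and 2 fell in B6, so that no common direction of this list held under both scalings. Rnf31, a ligase of linear ubiquitin chains, rose by 0.93 in 129 and 1.03 in B6. This ligase promotes NF-κB signalling, and its partners Sharpin and Rbck1 were listed too. The list called feedback inhibitors here thus mixes inhibitors with activators. The medians of these 2 lists in 129, 0.16 and 0.12, turned to -0.01 and -0.05 when arrays were centred on housekeeping genes, a scaling that moved the median of all probe sets by -0.17 in this comparison.

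Most of the NF-κB targets rose. Of 27 targets of NF-κB, 18 rose and 1 fell in 129, and 18 rose and 2 fell in B6. The chemokine Ccl2 rose by 3.39 in 129 (SE 0.20, adjusted p = 3.13e-07) and 3.27 in B6 (SE 0.20, adjusted p = 4.57e-07). Cxcl10, a chemokine that interferons also induce, rose by 3.05 in 129 and 3.46 in B6. All 3 other measured C/EBP genes, Cebpa, Ddit3 and Cebpg, rose in both strains, by 0.49 to 0.94 in 129 and by 0.55 to 1.27 in B6. Of 16 acute phase and C/EBP targets, 8 rose in 129 and 8 in B6 and 0 fell, with the iron-binding protein Lcn2 at 6.39 in 129 and 6.45 in B6. Of 12 genes of the STAT3 axis, through which interleukin-6 type cytokines induce Cebpd, 9 rose in 129, and 8 rose and 1 fell in B6. Socs3, the feedback inhibitor of that axis, rose by 4.28 in 129 and 4.70 in B6. Without replicate 2 of normal 129 retina, the genes called higher in 129 numbered 2 of 6 other NF-κB and IκB genes, 9 of 22 receptors and ligands, 8 of 23 adaptors and kinases, 4 of 15 feedback inhibitors, 15 of 27 NF-κB targets, 3 of 3 C/EBP genes, 7 of 16 acute phase and C/EBP targets and 9 of 12 genes of the STAT3 axis.

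**Figure D5:**
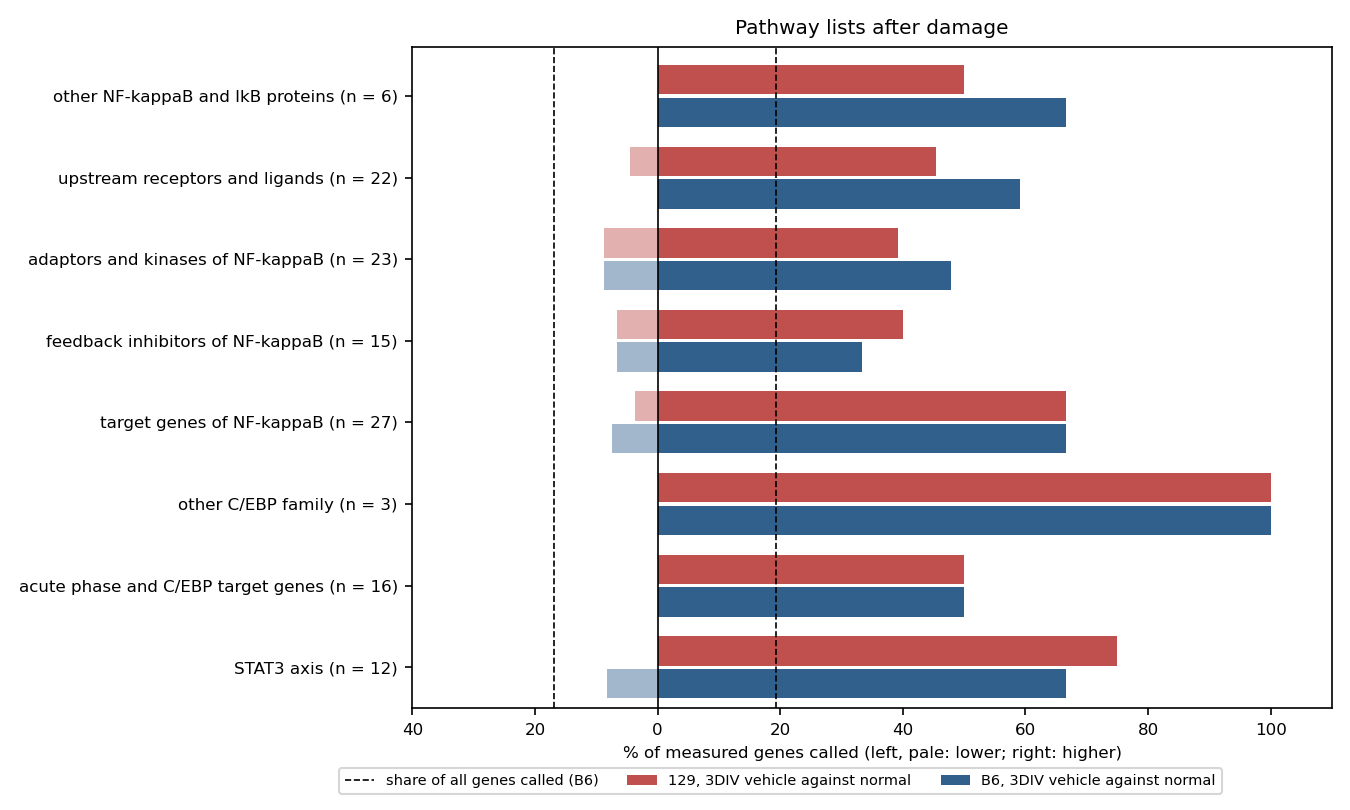
Share of the measured genes of each pathway list that was called after damage, in percent, higher to the right and lower to the left in paler colour, 129 in red above B6 in blue. Dashed lines mark the 19.3% of all genes called higher and the 16.9% called lower in B6.

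Genes outside the list were ranked by the Pearson r of their values with those of the regulators over the 12 arrays, among 2794 genes whose group means spanned at least 1. These values describe 6 groups of 2 arrays, in which normal retina and explants lie far apart. The mean of the standardized regulators was most like Lcn2 (r = 0.986), Lyz1 (0.983), Tyrobp (0.981), Nfkbiz (0.981) and Tmem176a (0.980). Cebpd was most like Osmr (0.997), Pdpn, Gbp2, B2m and Lrrc2 (0.993), and Bcl3 most like Ms4a6d (0.995), Nmi, Ccl3, AA467197 and Cyb5r3 (0.989). Relb was most like Psmb9 (0.995), Irf8, S100a16, H2-K1 and Shisa5 (0.992), and Icam1 most like Fcgr4 (0.970), Plekhb1, Il21, Crispld2 and Pgf (0.964).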

How the data were processed

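RNA of neural retina was labelled and hybridised to 12 arrays, 2 for each of 6 groups taken from the labels. The deposited values were linear intensities that the authors had summarized with RMA (no version is given in the sources used here). The values were taken to log2, and 64 control probe sets were left out of 45101. The platform annotation, updated through RefSeq, gave 1 symbol to 34945 probe sets, several to 932 and none to 9160. The fit used limma 3.58.1 in R 4.3.3, with lmFit and eBayes, 6 residual and 4.69 prior degrees of freedom and 9 comparisons, and was tested on simulated data. All probe sets entered without a filter, and the number of arrays limits the precision. Median intensities were 68.8 to 70.7. The regulators and the gene lists were chosen with earlier results of these data known. From each list, up to 4 called genes with the largest change were eligible to be named, and like patterns were given for the mean profile and for genes with a called interaction. Alternatives were the replicate number as a block, only the arrays compared, eBayes with trend and robust estimation, centring on 7 housekeeping genes, cyclic loess, probe sets above the median level, and each array left out in turn. Figures were drawn with matplotlib 3.10.9 in Python 3.11.15.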

Additional observations from a re-analysis of the deposited data

Results flagged for a closer look

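The change after damage differed between 129 and B6 by the interaction test in limma at 4 probe sets of the regulators. Of all probe sets, 1.55% were called higher in 129 and 1.03% lower. The difference, change in 129 minus change in B6, was -0.99 for Bcl3 (adjusted p = 0.0154), 0.50 for Relb (adjusted p = 0.0393), -0.93 for Icam1 (adjusted p = 0.00954) and 1.42 for Cebpd (adjusted p = 1.52e-04). The calls of Icam1 and Cebpd were kept in all alternatives run. That of Bcl3 was kept in 15 of 18 and that of Relb in 2 of 17. Icam1 was low in normal retina, where a level above background was not tested. The second Cebpd probe set gave 0.17 (adjusted p = 0.622).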

How the results depend on the processing

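Of 60 called values of the regulators, none changed direction under any alternative run. With the replicate number as a replicate block, 59 kept their call, and the exception was Nfkb2 1429128_x_at in 129 after damage (adjusted p = 0.0669). Arrays with the same number did not deviate together over all probe sets, with correlations of -0.11 to 0.04 over 15 pairs of groups. Whether they share something that moves few probe sets was not tested. Cyclic loess kept 59, trended and robust eBayes 58, centring on housekeeping genes 54 and only the arrays compared 51, while all 47 that lay above the median level stayed called among those probe sets alone. Leaving out 1 array at a time gave 15 to 16 called regulators after damage in 129 (16 with all arrays) and 12 to 16 in B6 (15). It gave 3 to 6 with CHIR99021 in 129 (6) and 2 to 6 in B6 (4). For the strain difference it gave 3 to 6 in normal retina (6), 2 to 5 in vehicle explants (5) and 3 to 4 in CHIR99021 explants (4), and for the interaction 2 to 3 with damage (4) and 0 to 1 with CHIR99021 (0). The cause was not tested, but each such fit has fewer arrays. Over all probe sets, leaving out 1 array moved the 5517 and 8379 calls with CHIR99021 in 129 and B6 to as few as 2131 and 4756, the strain differences in normal retina, vehicle and CHIR99021 explants (5188, 9005 and 4904) to 3083, 4860 and 2694, and the interactions with damage and CHIR99021 (1161 and 610) to 352 and 149. Trended, robust eBayes gave 2440 and 1464 interaction calls, and the probe sets above the median level gave 1856 with damage. Only the arrays compared gave 2934 strain differences in normal retina. Centring on housekeeping genes gave 7832 there and 20772 calls after damage in 129 (13784), and it moved the median of all probe sets by 0.11 and -0.17 in these comparisons.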

Other observations

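Several genes of the target lists moved farther with CHIR99021 than any regulator did, and those named are among the largest called changes. The 27 NF-κB targets summed to 10765 to 11139 with CHIR99021 against 10408 to 10833 with vehicle in 129. In B6 they summed to 12289 to 13573 against 11168 to 11253. The 16 acute phase and C/EBP targets summed to 7585 to 8529 against 15749 to 17909 in 129. Their sums in B6 were 14420 to 16163 against 30345 to 33642. Lcn2 was lower with CHIR99021 than with vehicle by a log2 difference of -1.54 in 129 (SE 0.16, adjusted p = 2.47e-04) and -1.55 in B6 (SE 0.16, adjusted p = 1.52e-04), and Steap4, a metalloreductase of inflamed tissue, by -1.99 in 129 and -1.76 in B6. Nfkbiz, which was listed with the IκB proteins and not as a target, was lower by -0.68 in 129 (SE 0.09, adjusted p = 0.00102). In B6 its difference of -0.42 (SE 0.09, adjusted p = 0.00978) was smaller than that of the regulator Icam1, -0.65. The B6 call of Nfkbiz was lost without replicate 2 of the B6 vehicle or replicate 1 of the B6 CHIR99021 explants. Other targets went the opposite way in B6, where the chemokine Cxcl5 was higher by 2.24 (SE 0.15, adjusted p = 9.97e-06) and Cxcl10 by 1.52 (SE 0.25, adjusted p = 0.00223). For Cxcl5 the effect was smaller in 129, at 0.66 (SE 0.15, adjusted p = 0.0151, lost without replicate 1 of the 129 vehicle or replicate 2 of the 129 CHIR99021 explants), with an interaction of -1.58 (SE 0.21, adjusted p = 0.00724). Il6, the cytokine upstream of the STAT3 axis, was lower with CHIR99021 in 129 by -1.70 (SE 0.16, adjusted p = 1.23e-04), and its interaction of -1.63 (SE 0.23, adjusted p = 0.00952) was kept in all 17 alternatives.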
